A study of Mus musculus with 4 samples.

Results

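The baseline transcriptome of cultured mouse vascular smooth muscle cells was described from the 2 libraries of cells given a scramble siRNA, a control RNA with no intended target. A gene was counted as expressed where its mean FPKM over these 2 libraries, a read density per kilobase of exon that is relative to the depth of the library, was at least 1. That held for 11080 of the 22488 genes listed (49.3%), and 10414 of them reached 1 in both libraries. The cells came from C57BL/6 mice, were at passages 4 to 10 and were collected 48 hours after transfection. Total RNA was sequenced with paired reads of 150 bases. The series holds 4 samples, and the other 2, given an siRNA against the circular RNA circEsyt2, were not used. No label says that the 2 libraries came from separate cultures, so their spread may be technical. There were no untransfected cells to set the scramble libraries against, and what the transfection itself contributes cannot be told apart from the resting state of the culture.

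Smooth muscle cells of the vessel wall are known for a contractile state, in which alpha smooth muscle actin, smooth muscle myosin and calponin fill the cytoplasm. In culture and after injury they can take up a synthetic state, in which they divide, migrate and secrete matrix, growth factors and chemokines. Transgelin, calponin and smooth muscle myosin heavy chain are widely used as markers of the contractile state, and osteopontin and Sca-1, the product of Ly6a, as markers of the synthetic or modulated state.

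The label was checked against 5 markers. Acta2, the gene of alpha smooth muscle actin (chr19:34241090-34255590, minus strand, GRCm38), stood at 1421 and 1446 FPKM in replicates 1 and 2 and ranked 16 of all genes. Cnn1, the gene of calponin 1, stood at 62.6 and 58.4 FPKM and ranked 778. Spp1, which encodes osteopontin (chr5:104435118-104441050, plus strand), stood at 1102 and 1075 FPKM and ranked 23. Ly6a, the Sca-1 gene, gave 618 and 619 FPKM and ranked 38. The 4 genes were therefore expressed, with Acta2 above Spp1, Spp1 above Ly6a and Ly6a above Cnn1 in both libraries.

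The fifth marker stood apart. Tagln, the gene of transgelin, had 8.80 and 10.4 FPKM and ranked 4768, so Acta2 was 162-fold and 139-fold above it. In the GENCODE M21 annotation 67.9% of the exon bases of Tagln (chr9:45929619-45936058, minus strand) also lie in exons of other genes. The main partner is the antisense gene Gm48529 (chr9:45930112-45933738, plus strand), and whether the authors' counting used strand is not given in the sources used here. Of the 50-base stretches of Tagln, 58.3% were also found in transcripts of other genes, against 0.326% for Acta2 and 0% for Cnn1. Either strand was searched, so this share is not independent of the exon overlap. Shares were also high for Rps3a1, Rplp1 and Pgk1, at 71.0%, 60% and 53.9%. These genes stood at 692 and 707, at 1422 and 1548 and at 302 and 267 FPKM. Overlap of exons was rare: 0.751% of the expressed genes had at least 50% of their exon bases in other genes. Of the 25 contractile filament genes Tagln alone did. The part of overlap and shared sequence in the low level of Tagln was not tested. Tagln2, a related gene expressed in many cell types, stood at 221 and 261 FPKM.

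**Figure D1:**
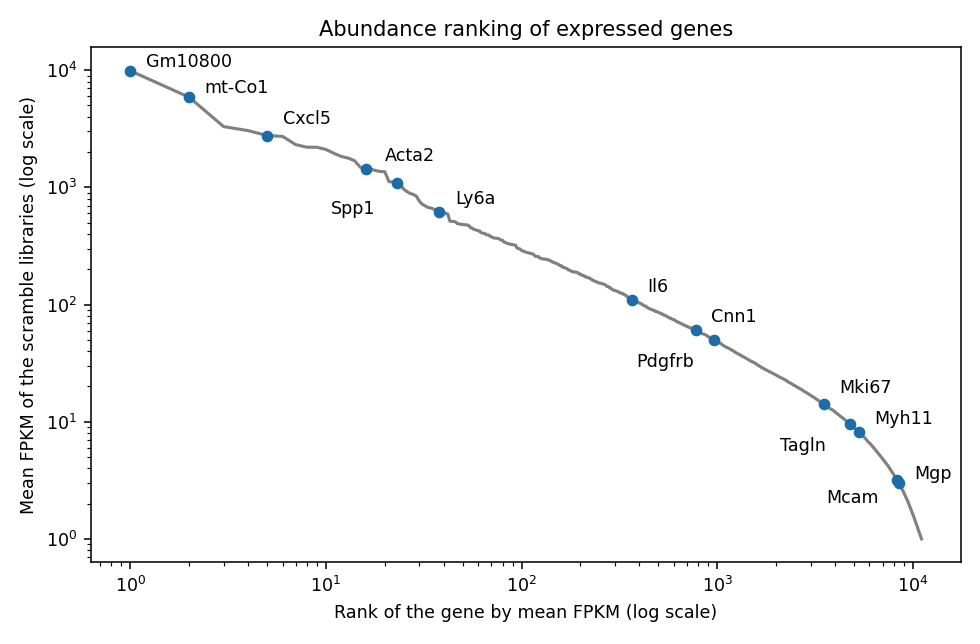
Mean FPKM of the 2 scramble libraries against the rank of the gene, both on log scales, for the 11080 expressed genes. Named points show Acta2 and Spp1 among the 25 most abundant genes, Cnn1 at rank 778, and Tagln and Myh11 below a mean of 10.

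The libraries differed in depth. The FPKM values of replicate 1 fitted whole numbers of counted reads at a library total of 2516428, and those of replicate 2 at 4116791. At these totals 1 counted read in a gene of 1 kilobase is worth 0.397 and 0.243 FPKM, and the limits that follow from read numbers cover counting error only. Genes above 0 numbered 16145 and 18783. As a background, 16 of the 1462 olfactory and vomeronasal receptor genes, which are known mainly from sensory neurons, reached a mean of 1 (1.09%), and their median was 0.192 FPKM. The highest of them by mean was Olfr456 at 3.02 and 5.08 FPKM.

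Among the expressed genes the libraries differed by a median of 0.19 on the log2(FPKM + 1) scale. A difference of at least 1 on that scale was found for 304 genes (2.74%), of which 186 were higher in replicate 2 and 118 in replicate 1. Of the 4616 genes with a mean of at least 10 it was found for 10, and of the 414 with a mean of at least 100 for 0. The 5 genes furthest above in replicate 2 among those with a mean of at least 10 were Gm17571, Apoo, Rps12-ps3, Ggh and Pigyl. The mitochondrial protein gene Apoo, for example, stood at 6.65 and 18.2 FPKM. Gm17571, a predicted gene of 90 exon bases, stood at 0 and 27.0 FPKM from 0 and 10 counted reads. On the other side were Pin4, Rbfa, Tbcc, Cisd3 and Thap11, with the prolyl isomerase gene Pin4 at 22.6 and 10.1 FPKM. Near the threshold of 1 the numbers of counted reads differed widely, with 0 and 4 for Hist1h2ag and 34 and 45 for Tnxb. Just above the threshold lay Tnxb, at 1.11 and 0.895 FPKM, with Lce1f, Palm2 and Hist1h2ag. Just below it lay Kyat3, at 0.543 and 1.45 FPKM, with Olfr1282, Cntrob and Pold1.

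**Figure D2:**
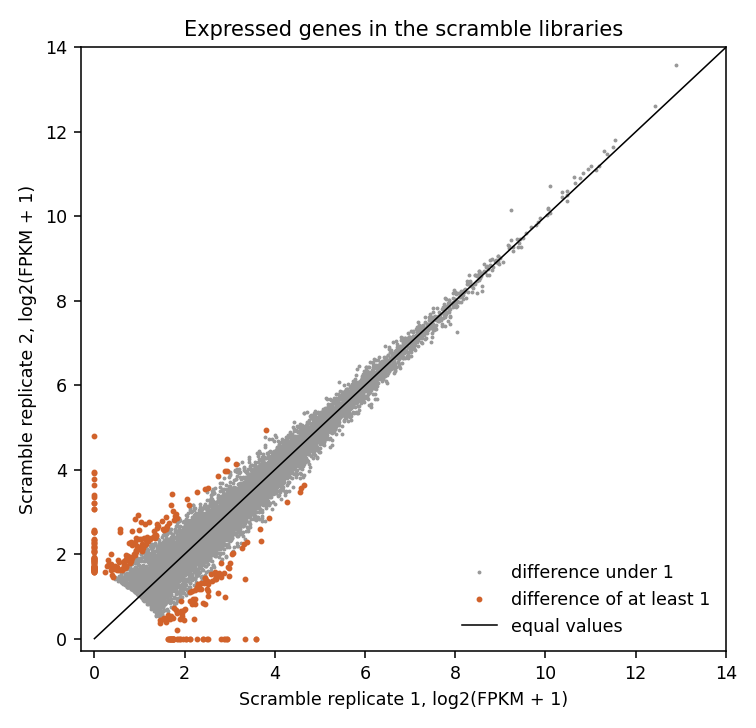
Level of each of the 11080 expressed genes in scramble replicate 1 and replicate 2, as log2(FPKM + 1). The 304 genes in colour differ by at least 1 on this scale, and none of the 414 genes with a mean of at least 100 FPKM is among them.

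Expression was concentrated in few genes. The expressed genes held 99.0% of the summed FPKM, the 10 most abundant 12.6%, the 100 most abundant 31.9% and the 1000 most abundant 63.3%. By level, 6464 genes had a mean from 1 to 10, 4202 from 10 to 100, 390 from 100 to 1000, and 24 at least 1000. The 100 most abundant genes of one library shared 97 members with those of the other. Because FPKM is relative to the library total, a high level of one gene lowers the values of all others.

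The first rank was held by Gm10800, a predicted gene, at 7559 and 12217 FPKM, which is 2.68% and 4.14% of the summed FPKM. Gm21738 and Gm10801, which are also predicted genes, ranked 18 and 28. Like Gm10800 they were higher in replicate 2, at 1098 and 1683 FPKM and at 606 and 1134 FPKM. Between 17.1% and 32.0% of the 50-base stretches of these 3 genes recur in transcripts of other genes, and their part in these levels was not tested.

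Of the 25 most abundant genes, 7 were encoded by the mitochondrial genome. Cytochrome oxidase subunit gene mt-Co1 led them at 5492 and 6265 FPKM, and the next by mean were mt-Nd1, mt-Cytb, mt-Nd5, mt-Nd2, mt-Nd6 and mt-Nd4. The other mitochondrial genes stood far lower in these files, with mt-Co2 at 128 and 126 FPKM and mt-Co3 at 75.5 and 76.8 FPKM. Copies of mitochondrial genes elsewhere in the genome were not checked, and their part in these values was not tested. Cytosolic ribosomal protein genes had 82 of 84 members expressed, supplied 19 of the 100 most abundant genes and held 5.79% and 5.78% of the summed FPKM. Rplp1, an acidic protein of the large subunit, was the highest at 1422 and 1548 FPKM. Translation factors were led by Eef1a1, which delivers tRNA to the ribosome, at 2224 and 2179 FPKM.

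Some genes that every cell uses had low values in these files. Rps10 and Rpl24, both ribosomal protein genes named after their values were seen, stood at 0.516 and 1.79 FPKM and at 1.54 and 3.77 FPKM. In M21, 28.7% of the exon bases of Rps10 and 47.0% of those of Rpl24 lie in exons of other genes. The glycolytic gene Gapdh stood at 19.8 and 23.6 FPKM, while Ldha and Aldoa of the same pathway stood at 490 and 534 FPKM and at 402 and 407 FPKM. Of the 50-base stretches of Gapdh 25.1% recur in transcripts of other genes, against 9.26% for Ldha and 5.13% for Aldoa. For the abundant Eef1a1 the share was 40.4%. The part of shared sequence in these values was not tested. A low value in this table therefore does not show that a transcript was absent from the cells.

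Chemokines and matrix genes stood beside the housekeeping genes at the top. Cxcl5, a chemokine that attracts neutrophils, ranked 5 and Ccl2, which attracts monocytes, ranked 6. Their values of 2526 and 3014 FPKM and of 2621 and 2824 FPKM overlapped, so their order is not settled by these libraries. Both lay above Actb, the cytoskeletal beta-actin gene, at 2315 and 2321 FPKM. The other genes among the top 25 were B2m, the light chain of class I antigen-presenting molecules, the iron storage gene Fth1, the antiviral gene Ifitm3, Thbs1, Ccl7, S100a6, Timp1, Lgals1 and Actg1. Of the 100 most abundant genes, 25 were on the secreted lists described further on and 1, the integrin gene Itgb1, was on the receptor lists.

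Contractile filament genes were mostly expressed, at widely different levels. Of the 25 listed, 24 had a mean of at least 1 FPKM, 15 of at least 10 and 9 of at least 100, and the list held 1.24% and 1.20% of the summed FPKM. The median of the list was 4.87 on the log2(FPKM + 1) scale, against 0.94 over all 22488 genes. After Acta2, the highest were Myl9, a regulatory myosin light chain, at 436 and 502 FPKM, and Cald1, the actin-binding caldesmon, at 249 and 244 FPKM. Tpm1, a tropomyosin, stood at 232 and 244 FPKM, so it could not be placed above or below Cald1 beyond the spread of the libraries. Csrp1, a LIM domain protein, and Actn1, an actin crosslinker, followed with 198 and 197 FPKM and with 198 and 184 FPKM. Acta2 alone made up 40.6% of the summed list, so the sum of this list is mainly a statement about that gene.

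Several members known mainly from differentiated smooth muscle were at the low end. Myh11, the smooth muscle myosin heavy chain (chr16:14194535-14291372, minus strand), stood at 8.58 and 7.77 FPKM, under the 13.5 and 10.5 FPKM of the non-muscle myosin gene Myh10. Smtn, the gene of smoothelin, stood at 9.53 and 9.04 FPKM, and Lmod1, which nucleates actin filaments, at 13.0 and 10.2 FPKM. Mylk, the kinase that triggers contraction by phosphorylating myosin light chain, had 5.01 and 5.43 FPKM. Des, the muscle intermediate filament desmin, was the member under the threshold, at 0.423 and 1.04 FPKM. The other smooth muscle actin, Actg2, which is known from visceral muscle, stood at 54.1 and 46.5 FPKM.

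Among the 6 actin genes Acta2 held 30.0% and 30.1% of the summed FPKM. Actb held 48.8% and 48.3% and Actg1, the other cytoskeletal actin, 19.9% and 20.5%. The skeletal gene Acta1 and the cardiac gene Actc1 together stayed under 1% in both libraries. For Actg1 37.4% of the 50-base stretches and for Actb 9.12% recur in other genes, so their shares are less certain than that of Acta2.

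The list of membrane, calcium and transcription genes of differentiated smooth muscle had 13 of 26 members at a mean of at least 1, near the 49.3% over all genes. Its median of 1.02 on the log2 scale was also near the 0.94 over all genes. Srf, the transcription factor that drives actin and contractile genes, stood at 17.4 and 17.1 FPKM, and its coactivator genes Mkl1 and Mkl2 at 19.8 and 17.3 FPKM and at 8.44 and 7.78 FPKM. Myocd, the smooth muscle coactivator of Srf known as myocardin, had 1.05 and 0.189 FPKM from 17 and 5 counted reads. Tagln2, Cav1, Rgs4 and Tbx18 were the highest of this list. Tagln2, which is not particular to smooth muscle, made up 47.5% of its sum, and Cav1, the coat protein of caveolae, stood at 106 and 118 FPKM. Cacna1c, the voltage-gated calcium channel of contractile cells, stood at 2.61 and 1.69 FPKM.

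Srf binds a sequence known as the CArG box, which many contractile gene promoters hold near their start. Promoter sequences from 250 bases before to 50 after the start were taken from RefSeq (GRCm38.p6) and searched on both strands for the 10-letter CArG consensus. It was found for 5 of the 21 expressed contractile filament genes with a promoter entry, and for 1.81% of the 27025 genes with an entry. The 5 genes were Myl9, Myl6, Vcl, Fhl1 and Ldb3. Tagln, Actg2 and Myh11 had no entry. Acta2 and Cnn1 had an entry without a match, and only exact matches to the consensus were counted. A match is a description of the letters, not a site in use. The 3 stretches shown belong to the highest of the 5, at mean levels of 469, 158 and 36.5 FPKM, and show the match in capitals with its flanks in lower case. They lie at chr2:156775283-156775332 (plus strand, match from 161 bases before the start), chr10:128493030-128493079 (minus strand, from 50 bases before) and chr14:20929151-20929200 (plus strand, from 227 bases before).
Myl9: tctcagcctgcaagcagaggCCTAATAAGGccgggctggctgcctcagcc
Myl6: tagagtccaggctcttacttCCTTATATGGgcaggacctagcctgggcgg
Vcl: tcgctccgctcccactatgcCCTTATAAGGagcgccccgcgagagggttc

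Genes of the synthetic state were nearly all expressed and at higher levels. Of 31 members 29 had a mean of at least 1 FPKM, 26 of at least 10 and 12 of at least 100. Their median was 6.01 on the log2 scale, and they held 2.47% and 2.34% of the summed FPKM, which is 1.99 and 1.94 times the sum of the contractile filament list. Without Acta2 on the contractile side that ratio was 3.35 and 3.28. The lists differ in length and were drawn up with earlier results in view, so the ratio describes these lists and is no test.

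The highest synthetic gene was Thbs1, the matrix glycoprotein thrombospondin 1, at 1414 and 1317 FPKM. Timp1, which inhibits metalloproteinases, stood at 1066 and 1155 FPKM, and overlapped with Spp1 and its 1102 and 1075. Tpm4, a tropomyosin of non-muscle filaments, stood at 582 and 603 FPKM, which is 3.64 and 3.84 times Tpm2, its smooth muscle relative. Vim, the mesenchymal intermediate filament vimentin, stood at 492 and 487 FPKM and Tnc, the matrix protein tenascin C, at 328 and 294 FPKM. Klf4, a transcription factor known to repress contractile genes, stood at 36.1 and 38.1 FPKM. The members under the threshold were the keratin genes Krt8 and Krt18, at 0.203 and 0.372 FPKM and at 0 and 0.338 FPKM. Mgp, a calcification inhibitor often listed among synthetic genes, was close to the low end at 3.35 and 2.66 FPKM.

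Cartilage and bone genes, which modulated smooth muscle can take up in diseased vessels, had 6 of 17 members expressed (35.3%) and 1 at a mean of at least 10. Tnfrsf11b, the gene of the decoy receptor osteoprotegerin, stood at 11.7 and 9.57 FPKM. Sox9, a cartilage transcription factor whose values overlapped with these, stood at 8.84 and 10.0 FPKM and Runx2, its counterpart in bone, at 5.94 and 7.31 FPKM. The cartilage collagen Col2a1 stood at 0.086 and 0.131 FPKM, and 4 of the 17 members were listed at 0 in both libraries.

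**Figure D3:**
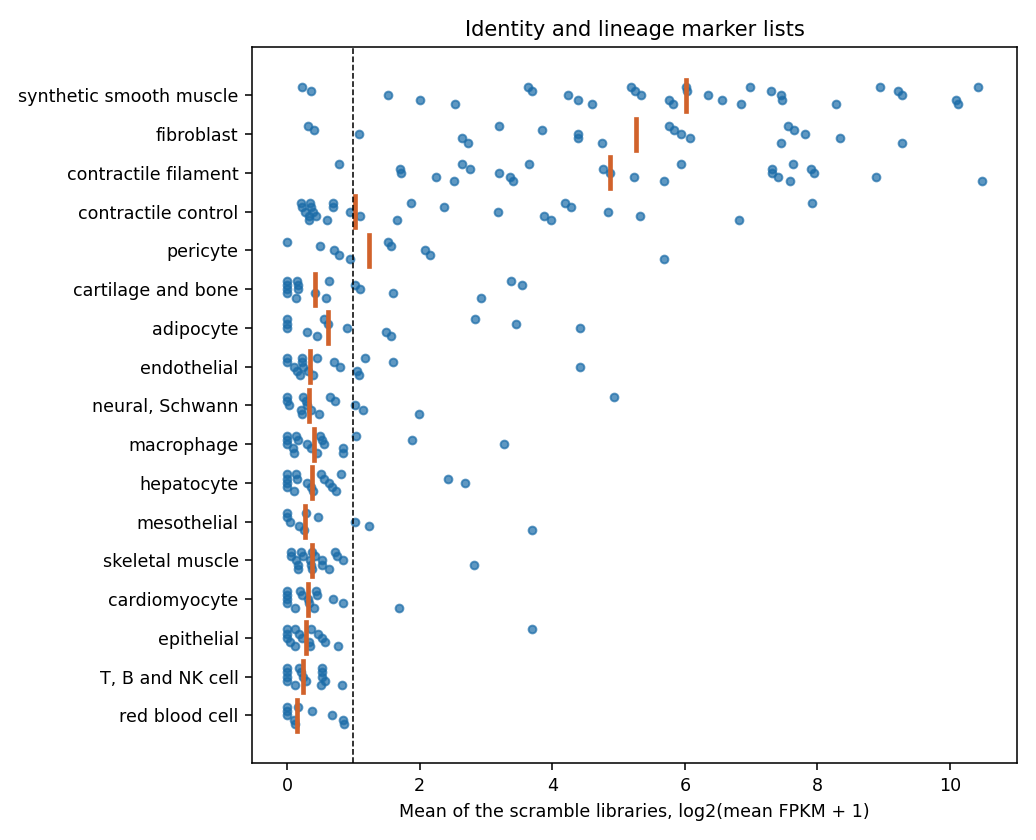
Level of each member of the 17 identity and lineage lists as log2 of (mean FPKM of the scramble libraries + 1), 1 point per gene, with the list median as an orange bar and a mean of 1 FPKM as the dashed line. The synthetic, fibroblast and contractile filament lists have most members to the right of the line, and the T, B and NK cell and red blood cell lists have none.

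Of the lists for other cell types, that of fibroblasts was the most fully expressed, with 18 of 20 members at a mean of at least 1 and 0.747% and 0.684% of the summed FPKM. It shares Ly6a, S100a4 and Pdgfra with the synthetic list. Beyond these, Col1a1 stood at 357 and 288 FPKM, Dcn, a small collagen-binding proteoglycan, at 184 and 190 FPKM, and Thy1, a surface glycoprotein, at 62.8 and 58.4 FPKM. Most of these genes are also known from cultured smooth muscle, and in bulk RNA a few cells with a high level and many cells with a low level cannot be told apart. Pericyte markers had 5 of 10 members expressed, near the 49.3% over all genes. Pdgfrb led them at 56.0 and 44.5 FPKM and made up 79.2% of the summed list. Rgs5, another pericyte marker, stood at 1.05 and 0.801 FPKM.

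Most markers of blood and endothelial cells had means under 1. Of the endothelial and macrophage markers 27.8% and 16.7% reached 1, against 1.09% of the olfactory and vomeronasal genes. Of 18 endothelial markers 5 reached a mean of 1, namely Eng, Flt1, Kdr, Esam and Cdh5. Flt1 stood at 2.03 and 2.03 FPKM and Kdr at 1.23 and 1.26 FPKM. Esam stood at 1.66 and 0.593 FPKM and Cdh5 at 1.51 and 0.636 FPKM. Among the members with a mean under 1, Pecam1 stood at 0.128 and 0.351 FPKM and Tek at 0.337 and 1.13 FPKM. Eng, an auxiliary TGF-beta receptor that smooth muscle also makes, was the 1 endothelial member above 10, at 23.4 and 17.2 FPKM. Of 18 macrophage markers 3 reached a mean of 1, and Ptprc, the common antigen of blood leukocytes, stood at 0.174 and 0.398 FPKM. The highest was Cd14, a coreceptor for bacterial lipopolysaccharide, at 8.85 and 8.50 FPKM. The macrophage list summed to 13.9 and 19.3 FPKM over all 18 members. None of the 15 T, B and NK cell markers and none of the 10 red blood cell markers reached a mean of 1, though 2 and 1 red blood cell markers did so in replicates 2 and 1 alone. With each library rescaled to the same sum as in TPM, 6 and 4 members of these lists and 9 macrophage markers reached 1. The genes Nkg7, Cd79b and Hba-a1 were listed at 0 in both libraries. With a limit of 3 counted reads taken as independent, a count of 0 allowed up to 1.30 and 0.797 FPKM for Nkg7. For Cd79b it allowed up to 0.833 and 0.509 FPKM. Reads of a pair appear to have been counted separately, so these limits are too narrow.

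Over all 166 genes of lineages other than fibroblast and pericyte, 24 reached a mean of 1 (14.5%) and 4 a mean of 10, and their sum was 0.0617% and 0.0647% of the total. The 4 were Eng, the adipocyte lipase gene Lpl, the calcium-binding gene S100b and the keratin gene Krt19. Lpl stood at 20.2 and 20.5 FPKM, Pparg, the adipocyte transcription factor, at 8.21 and 11.7 FPKM, and Fabp4, a fatty acid carrier, at 6.55 and 5.74 FPKM. Of the 13 adipocyte markers 5 had a mean of at least 1, and Adipoq, the fat cell hormone, stood at 0.576 and 0.352 FPKM. S100b stood at 26.8 and 31.9 FPKM, whereas Gfap, another glial gene, had 0 and 0.346 FPKM. Krt19 stood at 10.1 and 13.7 FPKM, and Epcam and Cdh1, which define epithelia, at 0.543 and 0.443 FPKM and at 0 and 0.0531 FPKM. Alb, the albumin gene, stood at 9.16 and 1.66 FPKM, and the other hepatocyte members had means under 1 except Hp, at 3.96 and 4.84 FPKM.

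Hox genes encode transcription factors that record where along the body axis a cell arose. Of 39 listed, 25 had a mean of at least 1 (64.1%, against 49.3% over all genes). Some lay near the threshold, such as Hoxa6 at 0.909 and 1.11 FPKM from 2 and 4 counted reads. The Hoxc cluster had all 9 members expressed and held 57.6% of the summed Hox FPKM. Hoxc10 was the highest at 25.6 and 28.0 FPKM, Hoxc6 followed with 12.7 and 14.6 FPKM and Hoxc13 with 10.2 and 16.2 FPKM. Hoxc10 lay above every other Hox gene in both libraries, and Hoxc6 and Hoxc13 could not be ordered. Paralogue groups 1 to 4, which mark the front of the body axis, had 4 of 12 members expressed, groups 5 to 9 had 14 of 15, and groups 10 to 13 had 7 of 12. Group totals were 13.1 and 9.96, 56.7 and 65.5, and 56.5 and 68.9 FPKM.

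All 30 genes of S, G2 and M phase were expressed, 19 of them at a mean of at least 10. Rrm2, which supplies deoxynucleotides for DNA synthesis, was the highest at 72.3 and 87.7 FPKM, and Pcna, the clamp of DNA polymerase, stood at 43.4 and 42.0 FPKM. Mki67, the gene of the proliferation antigen Ki-67, stood at 15.2 and 12.9 FPKM. Cyclin-dependent kinase inhibitors were expressed beside them, on a list that also holds the p53 gene Trp53, Mdm2 and Rb1. All 10 members of that list had a mean of at least 1. Cdkn1a, the p21 gene, stood at 194 and 186 FPKM and Cdkn2b, the p15 gene, at 42.6 and 43.7 FPKM. Cdkn1b, the p27 gene, stood at 2.79 and 2.24 FPKM, so Cdkn1a was 69.4-fold and 82.9-fold above it.

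Genes for secreted products were a large part of the transcriptome. Of 556 listed secreted genes 283 had a mean of at least 1 (50.9%), near the 49.3% over all genes, and 46 had a mean of at least 100. They held 10.3% and 9.91% of the summed FPKM. Of 429 receptor genes a like share was expressed, 222 (51.7%), but 6 reached a mean of 100 and the class held 1.37% and 1.26%. The median on the log2 scale was 1.11 for the secreted and 1.10 for the receptor genes, against 0.94 over all genes.

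Chemokines held the largest share of the summed FPKM among the secreted lists in both libraries, 2.88% and 2.99% in 41 genes. Of these genes 21 were expressed (51.2%), near the 49.3% over all genes. Below Cxcl5 and Ccl2 stood Ccl7, which draws in monocytes and lies next to Ccl2 on chromosome 11, at 1313 and 1410 FPKM, and Cxcl1, which draws in neutrophils, at 824 and 858 FPKM. These 4 genes were separated from the rest of the class, since Ppbp followed at 170 and 195 FPKM and Cxcl10, an interferon-induced chemokine for T cells, at 175 and 129 FPKM. Cxcl3, which also draws in neutrophils, stood at 104 and 99.2 FPKM. Cxcl12, a chemokine of stromal cells chosen here after its value was seen, stood at only 3.06 and 4.16 FPKM, and 8 members were listed at 0 in both libraries.

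Many chemokine and cytokine genes are known targets of NF-kappaB, whose binding sequence is the kappa-B motif. The same RefSeq promoters were searched on both strands for its 10-letter consensus. In Myl9, which held both motifs, the matches do not overlap. Of the 21 expressed chemokine genes 14 had an entry, and 6 of these held a match: Cxcl1, Cxcl10, Cxcl3, Cxcl2, Ccl20 and Ccl9. Of the 15 chemokine genes with an entry and a mean under 1, 1 held a match, and of all 27025 genes 5.14% did. Cxcl1, Cxcl2 and Cxcl3 are related neighbours on chromosome 5, so their matches are not independent of each other. Cxcl5, Ccl2 and Ccl7 had no entry. Among expressed genes with an entry the motif was found for 2 of 14 cytokine and 4 of 37 growth factor genes, and for collagen genes under 1 in 4 of 18. The stretches shown are those of the highest members with a match, and of Il6 and Csf1, with the match in capitals. They lie at chr5:90891154-90891203, chr5:92349019-92349068, chr5:90786008-90786057, chr5:90903782-90903831, chr5:30013050-30013099 and chr3:107760594-107760643. The Cxcl10 and Csf1 stretches are on the minus strand and the others on the plus strand. The match begins 71, 159, 73, 97, 44 and 154 bases before the start, in the order shown.
Cxcl1: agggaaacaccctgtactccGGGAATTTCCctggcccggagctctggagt
Cxcl10: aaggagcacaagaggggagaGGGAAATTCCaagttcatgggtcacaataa
Cxcl3: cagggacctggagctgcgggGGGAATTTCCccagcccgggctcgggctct
Cxcl2: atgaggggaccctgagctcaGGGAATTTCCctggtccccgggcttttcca
Il6: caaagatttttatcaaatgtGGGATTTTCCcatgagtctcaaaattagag
Csf1: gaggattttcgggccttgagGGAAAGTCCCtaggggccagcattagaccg

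Cytokines were expressed at lower levels than chemokines, with 20 of 74 members at a mean of at least 1 (27.0%, against 49.3% over all genes). Il6, which drives acute inflammation, stood at 111 and 110 FPKM, so Cxcl5 was 22.8-fold and 27.5-fold above it. Tslp, an epithelial and stromal cytokine, stood at 107 and 87.2 FPKM. Il11 and Lif, which signal through the same shared subunit as Il6, stood at 59.4 and 55.9 FPKM and at 61.2 and 53.2 FPKM, and overlapped. Of the 74 cytokine genes 21 were listed at 0 in both libraries.

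Growth factors and their antagonists had 50 of 71 members expressed (70.4%, against 49.3% over all genes). Fstl1, a follistatin-like secreted protein, stood at 507 and 516 FPKM and Csf1, the macrophage growth factor, at 498 and 465 FPKM. Grem1, a secreted BMP antagonist, stood at 234 and 196 FPKM, and overlapped with Inhba, the activin A subunit, at 194 and 198 FPKM. The fibroblast growth factor gene Fgf7, which acts on epithelia, stood at 155 and 172 FPKM and Ereg, a ligand of the EGF receptor, at 130 and 121 FPKM. Of 30 Wnt ligands and antagonists 9 were expressed (30%), and the highest was Sfrp1, an antagonist, at 40.9 and 39.1 FPKM. Igfbp7 was far above the other IGF binding proteins, at 699 and 619 FPKM against 39.2 and 37.3 FPKM for Igfbp3.

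Peptide hormone genes included 2 of the 100 most abundant genes. Cck, which encodes cholecystokinin (chr9:121489824-121495694, minus strand), stood at 495 and 536 FPKM and ranked 43. Adm, the vasodilator adrenomedullin, stood at 371 and 371 FPKM and ranked 72. Penk, the precursor of enkephalins, stood at 101 and 84.9 FPKM, and Edn1, the vasoconstrictor endothelin 1, at 4.27 and 4.54 FPKM. The 3 leading genes were each separated from the next by more than the spread of the libraries.

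Matrix genes were led by glycoproteins and crosslinking enzymes rather than by collagens. Of 42 elastic fibre and matrix glycoprotein genes 37 were expressed, 13 at a mean of at least 100, and the list held 2.79% and 2.59% of the summed FPKM. After Thbs1 and Spp1 stood Lgals1, a lectin, at 1050 and 1047 FPKM, and Sparc, which binds collagen, at 886 and 889 FPKM. Eln, the elastin gene, which forms the elastic layers of arteries and is named here after its value was seen, had 0 and 0.450 FPKM from 0 and 15 counted reads. Lox, which crosslinks elastin and collagen, stood at 911 and 925 FPKM and was 7.73-fold and 9.27-fold above its relative Loxl1.

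Of 44 collagen chains 20 were expressed (45.5%, against 49.3% over all genes), and the list held 0.421% and 0.356% of the summed FPKM. The fibrillar chains Col1a1 and Col1a2 stood at 357 and 288 FPKM and at 209 and 190 FPKM. Col5a2, which joins collagen I fibrils, stood at 178 and 165 FPKM. Col3a1, a major collagen of the vessel wall, stood at 26.9 and 25.1 FPKM, so Col1a1 was 13.3-fold and 11.5-fold above it. The basement membrane chains Col4a1 and Col4a2 stood at 69.6 and 63.2 FPKM and at 38.1 and 38.0 FPKM. Bgn was the highest proteoglycan gene at 618 and 580 FPKM, and Nid1, which links laminin to collagen IV, the highest of the laminin list at 188 and 170 FPKM.

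Inhibitors of metalloproteinases were more abundant than the enzymes at the head of each list. Timp1 was 5.75-fold and 6.95-fold above Mmp3, the highest metalloproteinase gene, at 185 and 166 FPKM. Timp2, another metalloproteinase inhibitor, stood at 450 and 426 FPKM. Mmp2 and Mmp14 followed among the proteases, at 78.6 and 70.0 FPKM and at 68.7 and 58.5 FPKM. Of 47 proteases on the list 27 were expressed (57.4%, against 49.3% over all genes) and 1 reached a mean of 100.

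**Figure D4:**
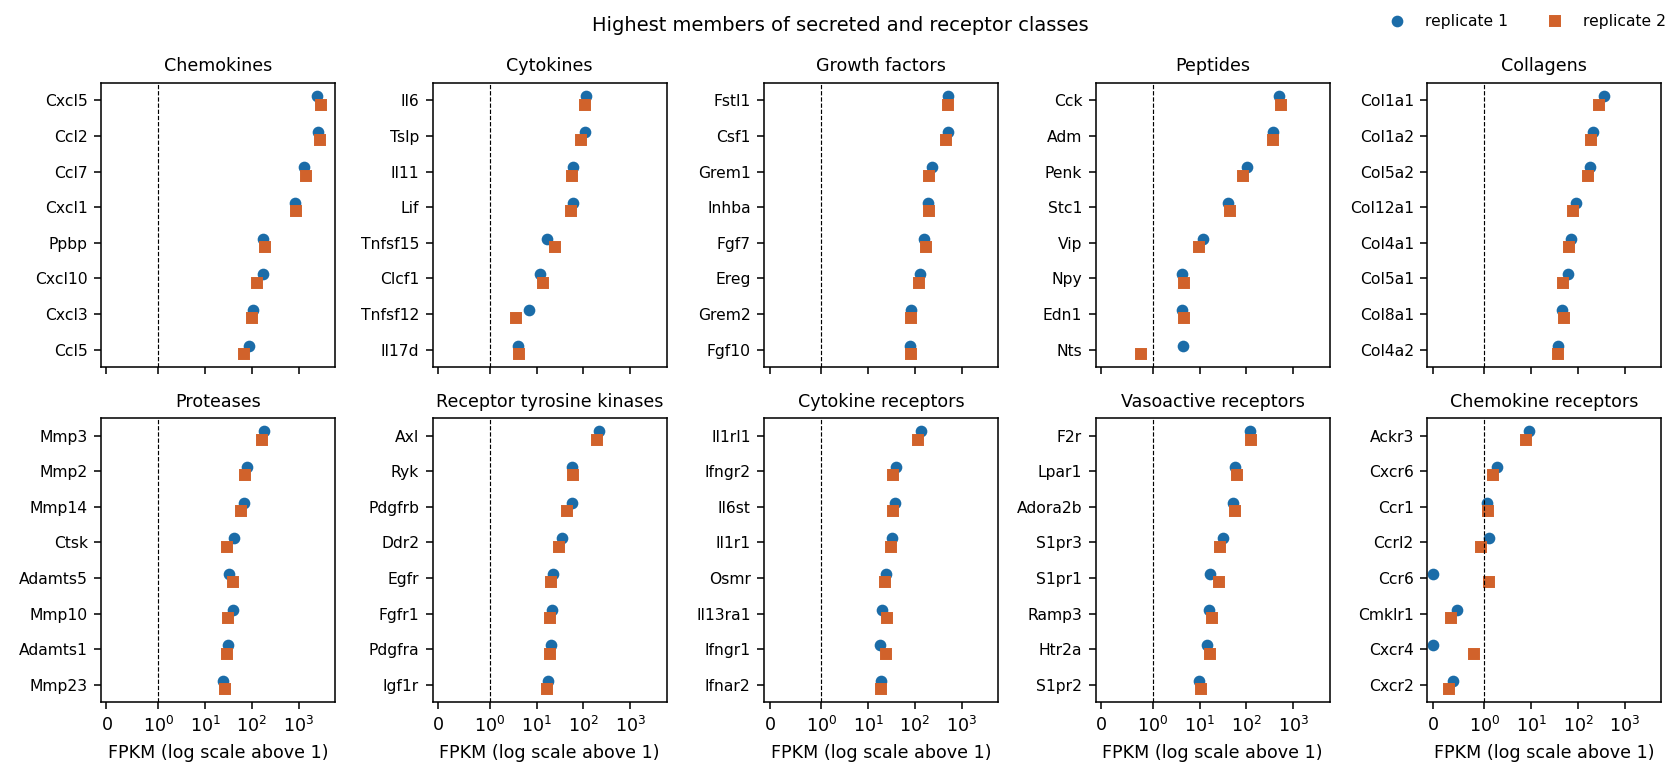
FPKM of 8 of the highest genes of 6 secreted and 4 receptor classes in scramble replicate 1 (circles) and replicate 2 (squares), on an axis that is logarithmic above 1, with 1 FPKM as the dashed line. Among chemokines Cxcl5 reaches 3014, whereas the highest chemokine receptor, Ackr3, stays under 10.

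Receptors for growth factors were led by Axl. This receptor tyrosine kinase, which binds Gas6, stood at 216 and 200 FPKM, 3.86-fold and 4.49-fold above Pdgfrb, the receptor for the smooth muscle mitogen PDGF-BB. Of 59 receptor tyrosine kinase genes 34 were expressed (57.6%, against 49.3% over all genes) and 10 reached a mean of 10. Ryk, a Wnt-binding receptor, stood at 55.7 and 60.4 FPKM and Pdgfrb at 56.0 and 44.5 FPKM, so these could not be ordered. Ddr2, a collagen receptor, stood at 35.6 and 30.5 FPKM and Egfr, the receptor for EGF, at 22.1 and 20.5 FPKM. In the TGF-beta family 12 of 15 receptor genes were expressed (80%), the coreceptor Tgfbr3 being the highest at 76.2 and 62.6 FPKM.

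Integrin subunits, which anchor cells to matrix, had 14 of 26 members expressed (53.8%), near the 49.3% over all genes. Itgb1, the common beta subunit, stood at 355 and 382 FPKM and Itga5, its partner in the fibronectin receptor, at 162 and 139 FPKM. Itgav and Itgb5, which bind vitronectin and osteopontin, stood at 51.5 and 47.5 FPKM and at 35.6 and 37.2 FPKM. Each of these 4 lay above the next in both libraries. Itga8, a subunit of contractile smooth muscle, stood at 2.53 and 2.01 FPKM.

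Cytokine receptors had 28 of 59 members expressed (47.5%), near the 49.3% over all genes. Il1rl1, which binds interleukin 33, stood at 136 and 113 FPKM. Ifngr2, a subunit of the interferon gamma receptor, stood at 39.7 and 34.8 FPKM, and Il6st, the shared subunit of the interleukin 6 family, at 37.5 and 33.1 FPKM. Il6ra, the subunit that binds interleukin 6 itself, stood at 2.07 and 1.91 FPKM. Chemokine receptors had 4 of 24 members at a mean of at least 1 (16.7%), the lowest share of the receptor classes. Ackr3, a scavenging receptor, was the highest of them at 8.90 and 7.55 FPKM. Among TNF receptors, 16 of 28 were expressed (57.1%, against 49.3% over all genes), led by Tnfrsf12a, the TWEAK receptor, at 62.5 and 68.3 FPKM.

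Receptors for vasoactive agents had 34 of 82 members expressed (41.5%, against 49.3% over all genes) and 8 at a mean of at least 10. F2r, the thrombin receptor, stood at 120 and 125 FPKM, above Lpar1, a receptor for lysophosphatidic acid, at 56.3 and 61.7 FPKM. Adora2b, an adenosine receptor, stood at 50.6 and 56.2 FPKM. The endothelin receptor genes Ednra and Ednrb stood at 1.67 and 0.843 FPKM and at 0.279 and 0.342 FPKM. Ion channels were low as a class, with 34 of 157 genes expressed (21.7%) and none at a mean of 100. Piezo1, a channel opened by stretch, stood at 22.6 and 13.0 FPKM and Kcne4, a potassium channel subunit, at 16.5 and 16.3 FPKM, so their order is not settled. Lrp1, a receptor that clears lipoproteins and proteases, led the lipoprotein and scavenger receptors at 71.8 and 54.3 FPKM.

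Ligand genes and their receptors were then set side by side for 31 ligands and 52 ligand and receptor pairs, a set drawn up after the values were seen. Of the 31 ligands 24 had a mean of at least 10 FPKM. Among these 24, the listed receptors of 8 ligands all had means under 1, and 10 ligands had at least 1 receptor gene at a mean of 10 or more. The comparison is between transcript levels, and protein at the cell surface was not measured.

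Ligands with little receptor transcript in the same cells included the leading chemokines. Cxcl5 is known to bind Cxcr2, which stood at 0.391 and 0.319 FPKM. Ccr2, the receptor for Ccl2, stood at 0.118 and 0.395 FPKM, and Cxcr3, the receptor for Cxcl10, was listed at 0. With 3 counted reads taken as independent, that 0 allowed up to 0.689 and 0.421 FPKM, a limit too narrow for paired reads. The cholecystokinin receptors Cckar and Cckbr stood at 0 and 0.198 FPKM and at 1.39 and 0.170 FPKM and so far below Cck itself. The neurotrophin gene Bdnf stood at 23.3 and 28.7 FPKM, whereas Ntrk2, its kinase receptor, had 0.309 and 0.264 FPKM. Csf1 was 266-fold and 134-fold above Csf1r, which stood at 1.87 and 3.48 FPKM.

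Other pairs had both sides expressed. Gas6 stood at 59.3 and 58.4 FPKM, below its receptor gene Axl in both libraries. Spp1 stood beside Cd44, which binds osteopontin, at 151 and 163 FPKM, and Ereg beside Egfr. Il11 stood beside its own receptor subunit Il11ra1, at 6.58 and 8.26 FPKM, and Il6st. Il33 and Pdgfb were low beside a higher receptor. Il33 stood at 1.93 and 1.68 FPKM beside Il1rl1, and Pdgfb was listed at 0 in both libraries beside Pdgfrb. For Pdgfb, the count of 0 allowed up to 0.287 and 0.175 FPKM by the same limit, which is too narrow for paired reads.

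**Figure D5:**
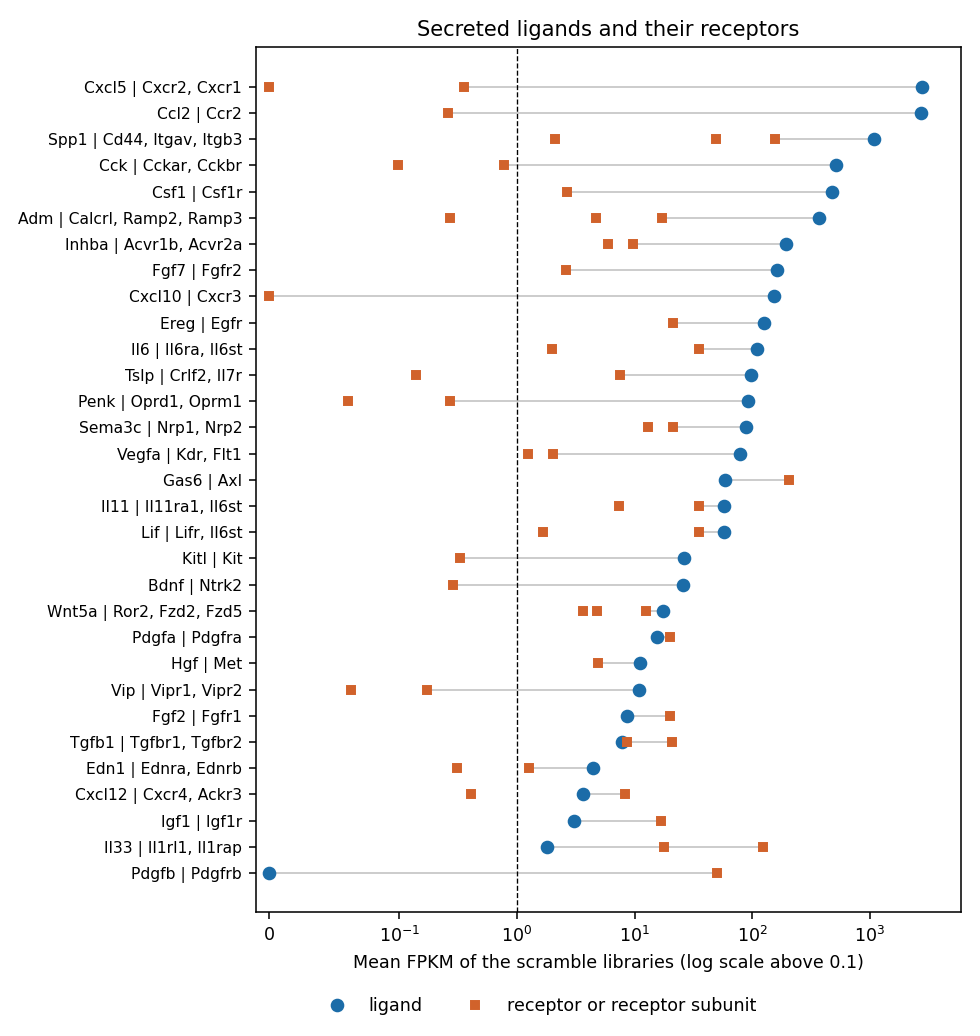
Mean FPKM of the scramble libraries for 31 ligand genes (circles) and their receptors or receptor subunits (squares), named at the left as ligand and then receptors, on an axis that is logarithmic above 0.1. The dashed line is 1 FPKM. Cxcl5 and Ccl2 lie furthest to the right with receptors under 1, and Il33 and Pdgfb lie below their receptors.

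Sensors and products of inflammation were expressed together with these ligands. Ptgs2, the inducible cyclooxygenase, stood at 753 and 778 FPKM and ranked 30, above its constitutive relative Ptgs1 at 104 and 107 FPKM. Ptges, which makes prostaglandin E2 from their product, stood at 86.1 and 73.3 FPKM. Of 19 genes on a list of Toll-like receptors and RNA sensors 12 were expressed (63.2%, against 49.3% over all genes). The list also holds Cgas, Tmem173, Nod1 and Nod2, which are neither. Ddx58, the gene of the RNA sensor RIG-I, stood at 54.7 and 52.0 FPKM, Ifih1, the gene of the sensor MDA5, at 39.4 and 31.9 FPKM and Tlr2 at 39.0 and 30.8 FPKM. Ptgs1, Ptgs2 and Ptges were chosen after their values were seen.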

How the data were processed

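The authors deposited FPKM values, 1 file per library with 1 row per gene. The submitters' processing notes name Trimmomatic, HISAT2 and featureCounts, and the builds GRCm38 and mm10. Versions, settings and use of strand were not given in the sources used here. FPKM is relative to the library total, so an abundant gene lowers all others.

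From these values means, ranks, shares of the summed FPKM and medians of log2(FPKM + 1) were computed with Python 3.11.15 and pandas 2.3.3. With 1 group of 2 libraries no test was run and no p-value is given. Genes were called higher or lower than one another only where both values of one exceeded both of the other. Library totals were solved from the digits of the FPKM values with exon-union lengths of GENCODE M21, a step tested on simulated data. In the 2 libraries 96.3% and 96.4% of values above 0 were whole within 0.001. Of the numbers up to 20, 67.0% and 62.5% were even, so reads of a pair appear to have been counted separately, and the numbers are given as counted reads, not fragments. The limit for a count of 0 was 3 counted reads, taken as independent. Where both reads of a pair were counted they are not independent, and the true limit is wider.

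The members and the 56 gene lists were chosen with earlier results of these data known. The patterns for cytokines and for translation factors were corrected after it was seen that they also took in receptor and kinase genes. Named were the 25 most abundant genes, the 5 markers, the 6 highest members of each list, the first 4 of each identity and lineage list, the 5 genes per side with the largest difference between libraries at a mean of at least 10, and 4 genes on each side of the threshold. Some of these genes are not reported here, and every other gene was chosen after its value was seen. Alternatives were other thresholds, pseudocounts and scalings, leaving out each library, and rankings without mitochondrial genes or by counted reads. Without Acta2, and the olfactory and vomeronasal background, were chosen after seeing the data.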

Additional observations from a re-analysis of the deposited data

How the results depend on the processing

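The number of expressed genes was 13062 at a mean of at least 0.5, 9530 at a mean of at least 2, 15297 with each library rescaled to the same sum, as in TPM, and 11000 to 11381 when either library was left out. The share of the summed FPKM in the top 10, 100 and 1000 genes was 10.6%, 27.7% and 60.8% without mitochondrially encoded genes. Ranked by counted reads, which are not divided by length, the same numbers of genes held 5.86%, 19.8% and 52.8% of the reads. With either library left out these shares ran from 11.6% to 13.6%, from 30.7% to 33.0% and from 62.8% to 63.9%. The ratio of the synthetic to the contractile filament sum was 1.97, from 1.94 to 1.99 with either library left out, and 3.32 without Acta2. Genes differing by at least 1 between the libraries numbered 304 with a pseudocount of 1 and 650 with a pseudocount of 0.1, which gives more weight to values near 0. With either library left out the expressed genes of the secreted lists numbered 284 to 296 and the expressed receptor genes 222 to 226. Of 241 recomputed counts of list members 206 stayed within 1.5 times the reported count, and 35 did not, 11 of them among the 17 identity and lineage lists after rescaling to the same sum. Of 83 recomputed list medians 26 moved by less than the spread between the libraries and 57 by more, including all 17 after rescaling. The median of the membrane, calcium and transcription list was 0.17 with a pseudocount of 0.1 and 3.98 over its expressed members. Depth limits the low end: in a gene of 1 kilobase a mean of 1 FPKM rests on few counted reads.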

Other observations

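The levels of 4 genes of the interferon response, chosen after their values were seen and not a list, were as follows in the scramble libraries. Ifitm3, a membrane protein that restricts virus entry, stood at 1601 and 1778 FPKM and ranked 14. Isg15, a ubiquitin-like modifier, stood at 386 and 300.1 FPKM. Irf7, a transcription factor of the same response, stood at 95.7 and 85.4 FPKM. Ifnb1, the interferon beta gene, stood at 1.06 and 5.83 FPKM. Saa3, an acute-phase protein gene, stood at 399 and 416 FPKM and ranked 63, and Nos2, the inducible nitric oxide synthase, at 26.2 and 14.6 FPKM.

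The Y-linked genes Ddx3y, Eif2s3y and Uty stood at 6.34 and 7.94, at 4.97 and 6.01 and at 1.10 and 1.04 FPKM. Counted reads came in even numbers more often than in odd ones: in replicate 1, 715 genes had 1 read, 1777 had 2, 370 had 3 and 801 had 4. In replicate 2 the numbers were 673, 1577, 537 and 993.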
